A study of Danio rerio with 12 samples.

Results

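Coenzyme Q synthesis was followed through the transcripts of 9 genes, pdss1, pdss2, coq2, coq6, coq3, coq5, coq7, coq4 and coq9, in zebrafish moonshine mutant embryos and their siblings. The genes were picked by name as the core enzymes and subunits of the pathway and are 9 of the 32520 genes in the count table. All 9 were kept by the filter on low counts, which left 21778 genes for testing. Fish of the moonshine line (mon) have a mutated trim33, which encodes the transcriptional cofactor TIF1γ, and homozygous mutants do not form red blood cells. Total RNA of whole embryos was sequenced after depletion of ribosomal RNA, in libraries that keep the strand.

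Mon embryos and siblings were each sampled at 30 and at 22 hours post fertilization (hpf), which gave 4 groups of 3 libraries. Each library came from 30 pooled embryos of 1 clutch, the offspring of a single mating of heterozygous mon carriers. Clutches 3, 4 and 9 gave the libraries of 30 hpf, and clutches 9, 11 and 13 those of 22 hpf. One parent of each clutch also carried a drl:EGFP transgene, a green reporter of the early blood-forming mesoderm, and the embryos were sorted on its signal, which is weak in mutants. The groups therefore rest on phenotype, and the siblings, labelled wild-type/het, are a mixture that may include carriers of 1 mutant allele. The embryos received no drug or other agent per the labels, and the reporter cross was the same for all 4 groups.

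Coenzyme Q, or ubiquinone, is a lipid of the inner mitochondrial membrane that takes electrons from complex I, complex II and several other dehydrogenases and hands them to complex III. It consists of a benzoquinone ring, made from tyrosine, and a long isoprenoid tail, made from products of the mevalonate pathway. The tail is built by the prenyl diphosphate synthase encoded by pdss1 and pdss2, and coq2 encodes the enzyme that joins tail and ring. The ring is then hydroxylated and methylated by a membrane-bound complex of COQ proteins. Most of these roles were worked out in yeast and mammals, and the zebrafish genes are described here by them. Developing red blood cells need active mitochondria for heme synthesis, and mature red cells of fish keep their nuclei and mitochondria.

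The libraries held 18233320 to 23135676 gene counts. Levels are given as CPM, the count of a gene scaled to a common library total with TMM factors. Transcript lengths were not used here, so the levels of different members were not ranked against each other. Read numbers per member and library ran from 30 for coq4 in siblings of clutch 13 to 391 for pdss1 in the same library, so single values of coq3, coq4 and coq7, and those of coq9 in clutch 13 (43 and 69 reads), carry the most counting error. The mutated gene, trim33 (ENSDARG00000016181), stood at 72.8, 72.8 and 71.7 CPM in mon at 30 hpf and at 75.5, 76.3 and 78.0 CPM in siblings at 30 hpf. Its values at 22 hpf were 50.7, 57.6 and 67.7 CPM in mon and 85.7, 84.2 and 89.4 CPM in siblings. As a log2 fold change the difference at 22 hpf, mon over sibling, was -0.56 ± 0.08 (SE, edgeR quasi-likelihood test, Benjamini-Hochberg adjusted p = 0.00129), a call lost without clutch 9 (adjusted p = 0.0584), and at 30 hpf it was -0.08 ± 0.08 (adjusted p = 1.00). The exact permutation test over libraries, two-sided, gave p = 0.1 at either stage, the smallest value for 3 against 3. Erythroid markers were lower in mon at both stages, in 10 of 10 genes tested, with summed levels of 197 to 213 CPM in mon and 1894 to 1998 CPM in siblings at 30 hpf, and of 50.7 to 59.3 CPM in mon and 414 to 474 CPM in siblings at 22 hpf. No marker of the lists for muscle (3 genes), neural tissue (5), heart (3), yolk (5) or endothelium (4) was called between mon and siblings. Reads of every marker on these lists were found in all libraries, except for 1 of 10 erythroid markers that had none in part of the mon libraries at 30 hpf, so the tissues that whole embryos should hold were present. In whole embryos, fewer cells of a type and less RNA per cell cannot be told apart, and the part that the missing red cells have in the values below was not tested.

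No coenzyme Q synthesis gene passed the test between mon and siblings at either stage. The counts were 0 of 9 at 30 hpf, where 0.790% of all tested genes were called, and 0 of 9 at 22 hpf, where 0.445% were called (edgeR quasi-likelihood, adjusted p under 0.05 over 21778 genes). As the mean of both stages, which uses 6 against 6 libraries, the count was again 0 of 9, beside 1.12% of all genes. DESeq2 and limma-voom also called 0 of 9 in each of these comparisons. So did the fit with clutch as a block, which called 3.09% of all genes at 30 hpf, 1.48% at 22 hpf and 3.66% in the mean. At an unadjusted p under 0.05 the counts were 0 members at 30 hpf (5.56% of all genes), 2 members at 22 hpf (4.29%) and the same 2 in the mean (6.38%). These 2 were pdss2 and coq3, both with higher levels in mon. The median log2 fold change of the 9 members was 0.01 at 30 hpf and 0.05 at 22 hpf, and over all tested genes it was 0.002 and 0.003. Summed over the 9 genes, the levels were 75.7 ± 3.49 CPM in mon and 75.9 ± 4.38 CPM in siblings at 30 hpf, and 70.9 ± 2.59 CPM in mon and 66.2 ± 2.44 CPM in siblings at 22 hpf (SD, n = 3 each).

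**Figure D1:**
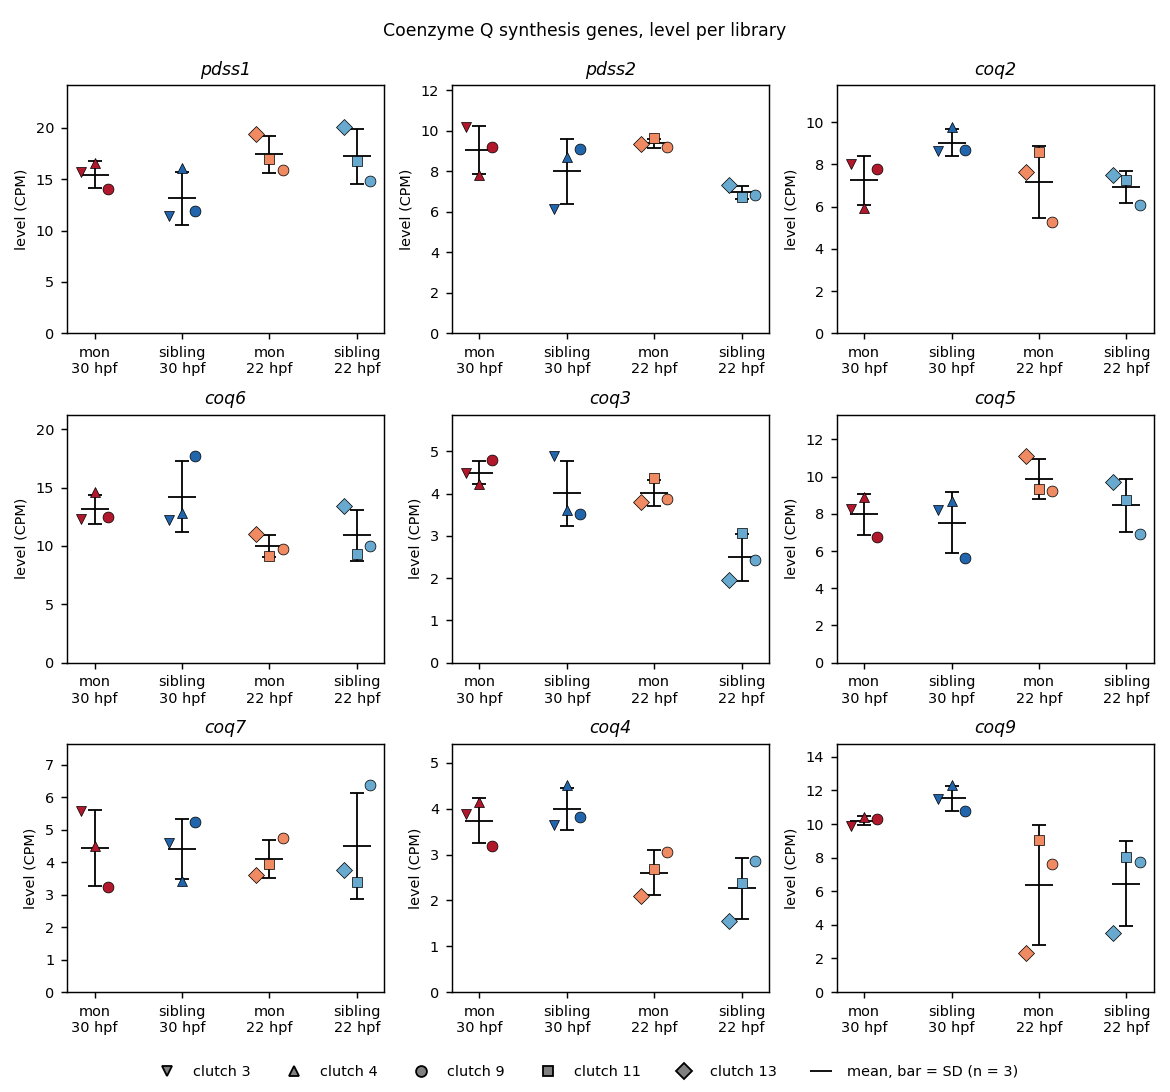
Levels of the 9 coenzyme Q synthesis genes in CPM (y axes, starting at 0) in each library, by group, with symbols for the clutch and black bars for the mean and SD of 3 libraries. The mon and sibling values lie close together in most panels, pdss2 and coq3 stand apart at 22 hpf, and coq9 is low in both libraries of clutch 13.

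Neither gene of the tail-building synthase passed the test between mon and siblings. The first subunit, pdss1 (ENSDARG00000017910), stood at 15.7, 16.6 and 14.0 CPM in mon and at 11.4, 16.1 and 11.9 CPM in siblings at 30 hpf (clutches 3, 4 and 9, the order used throughout for this stage). The 22 hpf values were 15.9, 17.0 and 19.4 CPM in mon and 14.8, 16.8 and 20.1 CPM in siblings (clutches 9, 11 and 13, likewise). The groups overlapped at both stages, and at 22 hpf the libraries of the same clutch were nearly alike. Mon over sibling, the log2 fold change of pdss1 was 0.23 ± 0.15 at 30 hpf and 0.02 ± 0.15 at 22 hpf (SE).

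For pdss2 (ENSDARG00000012563), the partner subunit, the 30 hpf levels were 10.2, 7.83 and 9.18 CPM in mon and 6.14, 8.72 and 9.12 CPM in siblings. Its 22 hpf levels were 9.20, 9.63 and 9.34 CPM in mon and 6.82, 6.72 and 7.34 CPM in siblings. At 22 hpf every mon library lay above every sibling library, while at 30 hpf the groups overlapped and the gap came mainly from the low sibling value of clutch 3. For pdss2 the log2 fold change was 0.18 ± 0.16 at 30 hpf and 0.43 ± 0.16 at 22 hpf (95% interval 0.09 to 0.77, edgeR, unadjusted p = 0.0163, adjusted p = 0.791). With clutch as a block the adjusted p of pdss2 at 22 hpf was 0.175.

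The joining enzyme coq2 (ENSDARG00000059510), 4-hydroxybenzoate polyprenyltransferase, stood at 8.03, 5.92 and 7.76 CPM in mon and at 8.63, 9.78 and 8.67 CPM in siblings at 30 hpf. Its values at 22 hpf were 5.28, 8.58 and 7.62 CPM in mon and 6.06, 7.26 and 7.49 CPM in siblings. All 3 mon libraries lay below the siblings at 30 hpf, with the widest gap in clutch 4, and the groups overlapped at 22 hpf. For coq2 the log2 fold change was -0.32 ± 0.18 at 30 hpf (95% interval -0.70 to 0.07, edgeR, adjusted p = 1.00) and 0.05 ± 0.19 at 22 hpf. The mon effect on coq2 at 30 hpf minus that at 22 hpf was -0.36 ± 0.26 and was not called (edgeR, adjusted p = 1.00).

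Of the genes that modify the ring, coq3 had the largest difference. It encodes the O-methyltransferase of the pathway. At 30 hpf coq3 (ENSDARG00000069857) stood at 4.48, 4.23 and 4.79 CPM in mon and at 4.89, 3.61 and 3.53 CPM in siblings. At 22 hpf it stood at 3.87, 4.36 and 3.81 CPM in mon and at 2.44, 3.08 and 1.95 CPM in siblings, from 71 to 96 reads in mon and 38 to 62 reads in siblings. The groups were separate at 22 hpf and overlapped at 30 hpf, where the sibling library of clutch 3 was the highest of all. The log2 fold change at 22 hpf was 0.69 ± 0.22 (95% interval 0.22 to 1.15, edgeR, unadjusted p = 0.00617, adjusted p = 0.509), and the adjusted p of coq3 was 0.101 with clutch as a block. At 30 hpf it was 0.16 ± 0.21, and the stages differed in this effect by -0.52 ± 0.30, which was not called (edgeR, adjusted p = 1.00). As the mean of both stages the log2 fold change of coq3 was 0.43 ± 0.15 (edgeR, adjusted p = 0.429, with the block 0.0928).

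The monooxygenase gene coq6 (ENSDARG00000060380), whose enzyme hydroxylates the ring with electrons from ferredoxin, stood at 12.3, 14.6 and 12.5 CPM in mon and at 12.2, 12.8 and 17.7 CPM in siblings at 30 hpf. Its 22 hpf levels were 9.78, 9.17 and 11.0 CPM in mon and 9.98, 9.35 and 13.4 CPM in siblings. Apart from a high sibling value at each stage, in clutch 9 at 30 hpf and in clutch 13 at 22 hpf, the libraries of both groups fell in the same range. Their log2 fold change was -0.12 ± 0.16 at 30 hpf and -0.13 ± 0.17 at 22 hpf.

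The C-methyltransferase gene coq5 (ENSDARG00000035618) stood at 8.28, 8.88 and 6.74 CPM in mon and at 8.23, 8.67 and 5.64 CPM in siblings at 30 hpf. The 22 hpf libraries held 9.20, 9.31 and 11.1 CPM in mon and 6.92, 8.76 and 9.70 CPM in siblings. The groups overlapped at each stage, but within a clutch the mon library was higher every time. On the log2 scale coq5 in mon differed from siblings by 0.08 ± 0.18 at 30 hpf and 0.22 ± 0.18 at 22 hpf.

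The hydroxylase gene coq7 (ENSDARG00000062594), which acts late on the ring, stood at 5.57, 4.51 and 3.24 CPM in mon and at 4.58, 3.41 and 5.24 CPM in siblings at 30 hpf. At 22 hpf the values were 4.75, 3.95 and 3.60 CPM in mon and 6.36, 3.38 and 3.75 CPM in siblings. The pairs disagreed in direction at both stages, and clutch 9 had the lower mon value each time. For coq7 the log2 fold change was 0.01 ± 0.26 at 30 hpf and -0.13 ± 0.26 at 22 hpf.

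The remaining members were grouped here as scaffold or lipid-binding genes. The organiser coq4 (ENSDARG00000104733) stood at 3.89, 4.14 and 3.19 CPM in mon and at 3.65, 4.51 and 3.83 CPM in siblings at 30 hpf. Its 22 hpf values were 3.05, 2.68 and 2.09 CPM in mon and 2.85, 2.39 and 1.54 CPM in siblings. The groups overlapped at both stages, and both groups were lower at 22 hpf. The log2 fold change of coq4, mon over sibling, was -0.09 ± 0.24 at 30 hpf and 0.21 ± 0.25 at 22 hpf.

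The lipid-binding protein gene coq9 (ENSDARG00000023583), whose product presents the substrate to COQ7, stood at 9.90, 10.4 and 10.3 CPM in mon and at 11.5, 12.3 and 10.8 CPM in siblings at 30 hpf. At 22 hpf it stood at 7.65, 9.08 and 2.31 CPM in mon and at 7.74, 8.06 and 3.54 CPM in siblings. The mon libraries lay below the siblings at 30 hpf by a small margin, and at 22 hpf both libraries of clutch 13 were far below the rest, at 43 and 69 reads. The fold change of coq9, as log2, was -0.17 ± 0.40 at 30 hpf and -0.01 ± 0.42 at 22 hpf. With clutch as a block the SE at 22 hpf was 0.16, and the 30 hpf value was -0.17 with a 95% interval of -0.44 to 0.10.

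**Figure D2:**
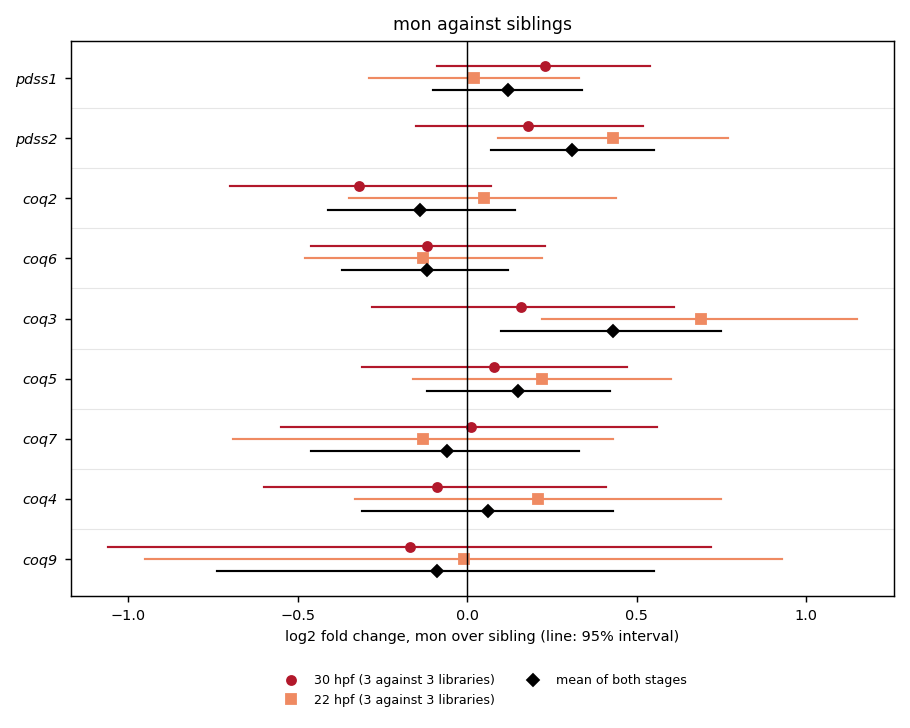
Log2 fold change of mon over sibling (x axis) for each coenzyme Q synthesis gene (rows), with 95% intervals, at 30 hpf, at 22 hpf and as the mean of both stages. The intervals of pdss2 and coq3 at 22 hpf and in the mean exclude 0 without adjustment for the number of genes, and coq9 has the widest intervals.

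The size of change that these libraries leave possible differs by gene and, for coq9, by whether the clutch is in the fit. Each interval holds for a single gene, without adjustment for the number of genes, and for the average of whole embryos. Without the block, the 95% intervals of the mon-over-sibling ratio in the mean of both stages lay between 0.598-fold (lower end, coq9) and 1.68-fold (upper end, coq3) over the 9 genes. With clutch as a block the lower end of coq9 was 0.798-fold, and the lowest over the 9 genes was 0.780-fold (coq2), beside a highest upper end of 1.66-fold (coq3). At 30 hpf the lowest end without the block was 0.478-fold for coq9, followed by 0.614-fold for coq2. The block put these ends at 0.736-fold for coq9 and 0.651-fold for coq2, so that coq2 had the lowest. At 22 hpf the lowest end without the block was 0.516-fold for coq9, followed by 0.619-fold for coq7, and with the block it was 0.771-fold for coq9 and 0.703-fold for coq7, the lowest there. The highest upper end at 30 hpf was 1.64-fold without the block (coq9) and 1.49-fold with it (coq3), and at 22 hpf it was 2.22-fold and 2.18-fold (coq3). No member was called for a mon effect that differed between stages (0 of 9, beside 0.0872% of all genes, edgeR, adjusted p = 1.00 for each), and 0 of 9 had an unadjusted p under 0.05 there (3.21% of all genes). DESeq2 and limma-voom called 0 of 9 as well.

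Within clutches, where both libraries come from the same parents, coq5 was higher in mon in 6 of 6 pairs, by a log2 ratio of 0.01 to 0.41. This held for 3.41% of all tested genes. At least 5 of 6 pairs were higher in mon for pdss1, pdss2, coq3 and coq5, against 15.0% of all tested genes. The exceptions were clutch 13 for pdss1 (log2 ratio -0.05), clutch 4 for pdss2 (-0.15) and clutch 3 for coq3 (-0.12). A mon value below the sibling value in at least 5 of 6 pairs was seen for coq9, as for 14.4% of all genes, with clutch 11 at 22 hpf as the exception (0.17). Groups that did not overlap were found for pdss2 and coq3 at 22 hpf, higher in mon (4.12% of all genes), and for coq2 and coq9 at 30 hpf, lower in mon (6.30% of all genes). These are counts of direction, and none of the 4 genes passed the test.

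**Figure D3:**
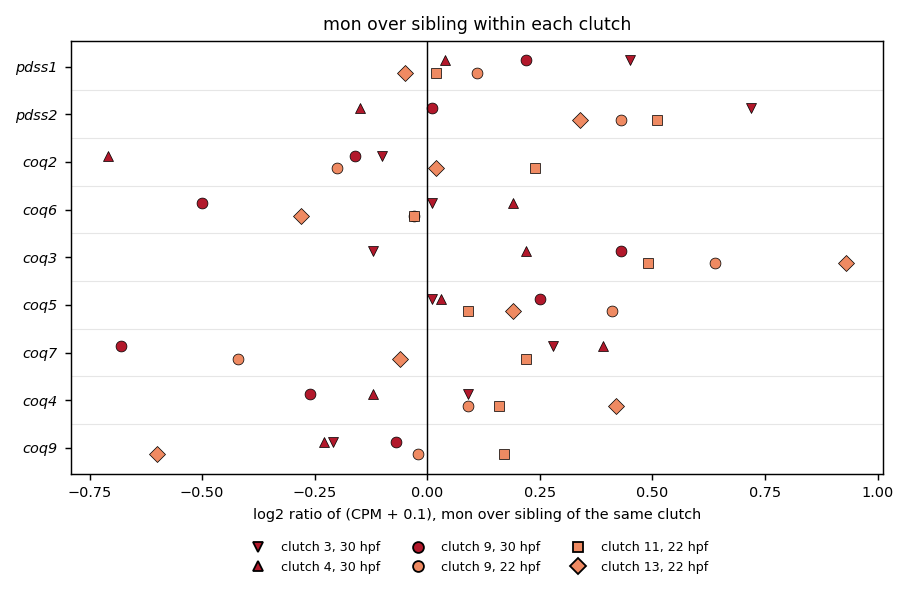
Log2 ratio of mon over sibling within each clutch (x axis, CPM with 0.1 added) for each coenzyme Q synthesis gene (rows), at 30 hpf and 22 hpf. All 6 points of coq5 lie right of 0, between 0.01 and 0.41, and coq7 spreads to both sides.

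Between the stages some members passed the test. In siblings 3 of 9 genes differed between 30 and 22 hpf, and among all tested genes 43.1% did (edgeR, adjusted p under 0.05). The organiser coq4 was higher at 30 hpf, at 4.00 ± 0.456 CPM against 2.26 ± 0.665 CPM at 22 hpf (SD, n = 3 each), or 0.82 ± 0.25 as log2 fold change (edgeR, adjusted p = 0.0130). The methyltransferase coq3 was higher as well, at 4.01 ± 0.766 CPM at 30 hpf and 2.49 ± 0.569 CPM at 22 hpf (log2 0.69 ± 0.22, edgeR, adjusted p = 0.0174). The synthase subunit pdss1 was lower, at 13.2 ± 2.58 CPM at 30 hpf and 17.2 ± 2.68 CPM at 22 hpf (log2 -0.39 ± 0.15, edgeR, adjusted p = 0.0430), with overlapping groups. Exact permutation tests over libraries, two-sided, gave p = 0.1 for coq3 and coq4 and p = 0.2 for pdss1.

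These stage calls depended on the clutches. With clutch as a block, the log2 fold change of coq4 was 0.40 ± 0.32 (edgeR, adjusted p = 0.321), below its value without the block. Those of coq3 and pdss1 stayed close, at 0.69 ± 0.30 (edgeR, adjusted p = 0.0591) and -0.35 ± 0.15 (edgeR, adjusted p = 0.0543), both just above the threshold on p. The block called 3 other genes in siblings, 3 of 9 beside 42.7% of all genes. They were coq2 (log2 0.71, adjusted p = 0.00509), coq6 (0.60, adjusted p = 0.00287) and coq9 (0.51, adjusted p = 0.0321), each higher at 30 hpf. Of the clutch numbers 9 alone occurs at both stages, so the block compares the stages through the libraries of that number, and the labels do not say that they are the same clutch. Each p-value of a stage comparison with the block therefore rests on 1 clutch number and does not measure the spread between clutches. Without the sibling library of clutch 13 the calls of coq4 (adjusted p = 0.0677), coq3 (0.0809) and pdss1 (0.202) were lost and coq6 was called (0.0163), all by edgeR. The calls were also lost without the 30 hpf sibling library of clutch 3 for coq3 (adjusted p = 0.10) and pdss1 (0.172), of clutch 4 for coq4 (0.0543) and of clutch 9 for pdss1 (0.146). For pdss1 the adjusted p lay between 0.0501 and 0.0710 without the sibling of clutch 11 or the mon libraries of clutch 9 or 11 at 22 hpf or clutch 3 at 30 hpf. On the 6 sibling libraries alone coq9 was called (adjusted p = 0.0242) in place of pdss1 (0.0711), and limma-voom called coq9 besides the 3 genes (0.0442). Without the mon library of clutch 13, coq9 was called in siblings (adjusted p = 0.00654), and without the 30 hpf sibling library of clutch 3 coq6 was (0.0423).

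In mon, 0 of 9 genes passed the test between 30 and 22 hpf, and 42.3% of all tested genes did (edgeR; DESeq2 and limma-voom also called 0 of 9). At an unadjusted p under 0.05 there was 1 member, coq6, against 48.9% of all genes. It stood at 13.1 ± 1.26 CPM at 30 hpf and 9.99 ± 0.934 CPM at 22 hpf in mon (SD, n = 3 each), or 0.40 ± 0.17 as log2 fold change (edgeR, adjusted p = 0.0640). With the block, which again compares the stages through clutch number 9 alone, coq6 was the 1 member called in mon (log2 0.61, edgeR, adjusted p = 0.00291). The block called 41.4% of all genes there. By edgeR coq6 was also called on the 6 mon libraries alone (adjusted p = 0.0342), without the sibling of clutch 13 (0.0447) and without the 30 hpf sibling of clutch 9 (0.0426). The stage change of coq3 was 0.16 ± 0.21 in mon, against 0.69 ± 0.22 in siblings, and that of coq4 was 0.52 ± 0.25 in mon, against 0.82 ± 0.25 in siblings. The largest log2 stage change among the members was that of coq9 in either group, 0.68 in mon and 0.84 in siblings. The edgeR fit of all 12 libraries without the block called it in neither group. The difference between mon and siblings in the stage change passed the test for no member. Both stage comparisons run beside large shifts in tissue markers. In siblings 9 of 10 erythroid markers were called higher at 30 hpf, where 43.1% of all tested genes were called in either direction. The summed muscle markers were 7616 to 8125 CPM at 30 hpf against 1073 to 1337 CPM at 22 hpf. Of these 3 muscle markers 2 were called higher and 1 lower at 30 hpf. The part of these shifts in the stage values was not tested.

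**Figure D4:**
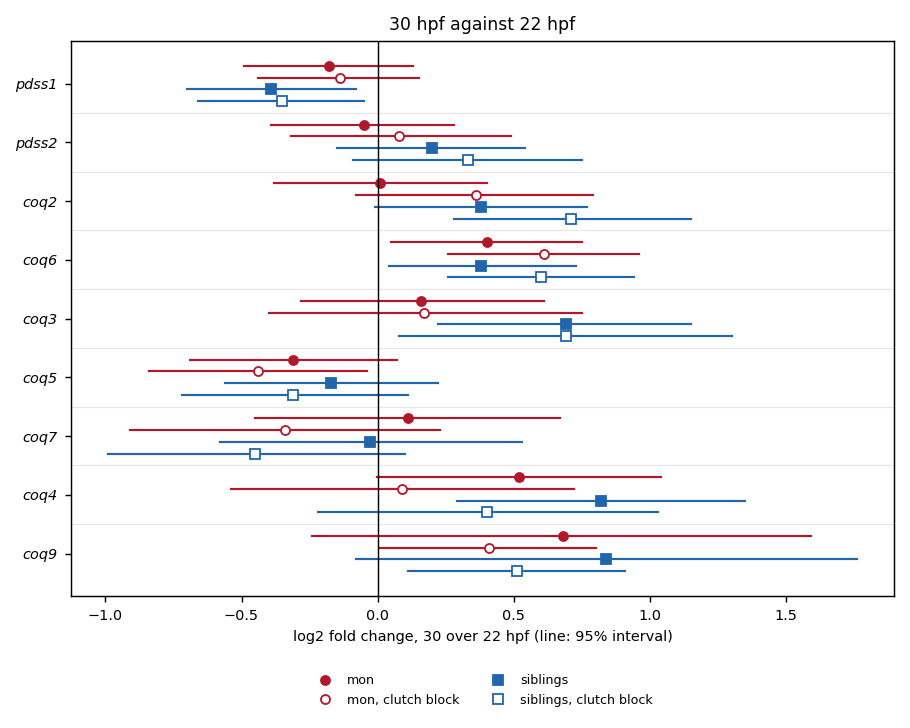
Log2 fold change of 30 over 22 hpf (x axis) for each coenzyme Q synthesis gene (rows) in mon and in siblings, with 95% intervals, without the clutch block (filled) and with it (open). The block moves coq4, coq7 and coq9 to the left and coq2 and coq6 to the right, and it narrows the interval of coq9.

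The genes around the core pathway were examined through 4 lists with 44 gene IDs, of which 41 were tested. They cover accessory genes of coenzyme Q synthesis, the mevalonate pathway that supplies the tail and the tyrosine route that leads to the ring. The last list holds enzymes that pass electrons to coenzyme Q, directly or through another enzyme. Between mon and siblings, 0 of 41 were called at 30 hpf and 1 of 41 at 22 hpf, beside 0.790% and 0.445% of all tested genes (edgeR). At 30 hpf 3 of 41 had an unadjusted p under 0.05, beside 5.56% of all tested genes (edgeR). The gene called at 22 hpf was hpda (ENSDARG00000018351), which encodes 4-hydroxyphenylpyruvate dioxygenase. This enzyme turns 4-hydroxyphenylpyruvate, a product of tyrosine, into homogentisate on the way to its breakdown, and the same compound stands on the route to the ring precursor 4-hydroxybenzoate.

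At 30 hpf hpda stood at 0.788, 1.32 and 0.665 CPM in mon (16, 29 and 15 reads) and at 0.222, 0.201 and 0.403 CPM in siblings (5, 4 and 8 reads). At 22 hpf it stood at 1.40, 1.18 and 1.02 CPM in mon (29, 26 and 19 reads) and at 0.153, 0.149 and 0.205 CPM in siblings (3, 3 and 4 reads). At 22 hpf every mon library lay above every sibling library, as for 4.12% of all tested genes. Within each clutch hpda was higher in mon at both stages, which held for 3.41% of all tested genes. These levels rest on few reads. The gene passed the filter on low counts through the mon libraries alone, as 0 of 6 sibling libraries reached its minimum of 0.487 CPM, and a gene kept in this way had to differ, so its call is no support beyond these values. The log2 fold change of hpda was 1.73 ± 0.47 at 30 hpf (edgeR, adjusted p = 0.177) and 2.79 ± 0.51 at 22 hpf (95% interval 1.72 to 3.86, edgeR, adjusted p = 0.0124). As the mean of both stages it was 2.26 ± 0.35 (edgeR, adjusted p = 0.00120). The effects at the stages differed by -1.06 ± 0.71, which was not called (edgeR, adjusted p = 1.00). The call of hpda at 22 hpf was lost without the mon library of clutch 9 (adjusted p = 0.0568) and without the sibling library of clutch 9 (0.0781), 11 (0.0909) or 13 (0.0518) of that stage. A second gene for this enzyme, HPD (ENSDARG00000044935), was left out by the filter on low counts. Its levels were 0.0887 to 0.273 CPM in mon and 0.0504 to 0.489 CPM in siblings at 30 hpf. At 22 hpf they were 0.322 to 0.581 CPM in mon and 0.205 to 0.498 CPM in siblings.

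Of the other ring genes, hpdl, a relative of hpda whose human product makes 4-hydroxymandelate from 4-hydroxyphenylpyruvate for coenzyme Q synthesis, stood at 1.08, 2.23 and 1.86 CPM in mon and at 1.65, 1.05 and 1.61 CPM in siblings at 30 hpf, and at 1.99, 1.36 and 0.805 CPM in mon and 2.65, 1.64 and 1.03 CPM in siblings at 22 hpf. The gene was not called at either stage (log2 0.26 ± 0.40 at 30 hpf and -0.35 ± 0.41 at 22 hpf). The genes pah, which makes tyrosine from phenylalanine, and tat, which begins tyrosine breakdown, were called at the stage comparison in both groups. In siblings pah was at 27.9, 25.9 and 26.7 CPM at 30 hpf and at 3.97, 2.04 and 2.31 CPM at 22 hpf (log2 3.27 ± 0.20, edgeR, adjusted p = 1.57e-09). The gene tat passed the filter through the 30 hpf libraries alone and so had to differ between stages. Its reads numbered 46, 41 and 41 at 30 hpf and 3, 2 and 2 at 22 hpf in siblings.

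The accessory list holds the kinase-like COQ8 genes, the lipid chaperones coq10a and coq10b, the PPTC7 phosphatases, the lipid carrier stard7 and the ferredoxins that feed coq6. None of its 11 tested genes was called between mon and siblings (median log2 0.02 at each stage). With clutch as a block, which called 3.09% of all tested genes at 30 hpf, a PPTC7 gene (ENSDARG00000052658) was called higher in mon (log2 0.35, edgeR, adjusted p = 0.0221). Without the block its adjusted p was 0.411 (edgeR). Its levels at 30 hpf were 22.7, 20.4 and 20.7 CPM in mon and 16.6, 18.0 and 15.3 CPM in siblings. The other PPTC7 gene (ENSDARG00000011122) had a lower mean in mon at 30 hpf, 7.94 ± 0.342 CPM against 8.88 ± 1.70 CPM in siblings (SD, n = 3 each). A COQ8A gene (ENSDARG00000020123), the kinase-like regulator of the complex, stood at 17.0, 19.1 and 18.4 CPM in mon and at 21.3, 22.3 and 18.6 CPM in siblings at 30 hpf, and it was not called. The other COQ8A gene (ENSDARG00000032426) had a slightly higher mean in mon, 5.07 ± 0.502 CPM against 4.80 ± 0.483 CPM in siblings at 30 hpf (SD, n = 3 each). Neither the ferredoxin gene fdx1 (log2 -0.09 ± 0.12 at 30 hpf and 0.11 ± 0.12 at 22 hpf) nor coq10a (0.12 ± 0.18 and -0.19 ± 0.18) was called. Between stages, 5 of 11 were called in mon and 4 of 11 in siblings, each lower at 30 hpf. These are shares of 45.5% and 36.4%, beside 42.3% and 43.1% of all tested genes called in either direction. Called lower at 30 hpf were 4398 of the 21778 tested genes in mon and 4518 in siblings. The lowest adjusted p in siblings was that of the ferredoxin gene fdx2, at 7.65, 7.72 and 6.95 CPM at 30 hpf and 11.7, 14.8 and 13.8 CPM at 22 hpf (log2 -0.85 ± 0.15, edgeR, adjusted p = 0.000177).

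Of the 10 genes for the tail precursor, 0 were called between mon and siblings, with medians of 0.12 at 30 hpf and 0.06 at 22 hpf. The isomerase gene idi1, which makes the starter unit of isoprenoids, stood at 51.1, 42.8 and 56.9 CPM in mon and at 43.4, 37.2 and 48.3 CPM in siblings at 30 hpf. It was higher in mon within each clutch, and the block, which called 3.09% of all tested genes at 30 hpf, called it (log2 0.23, edgeR, adjusted p = 0.00898). Without the block its adjusted p was 0.814 (edgeR). The mevalonate kinase gene mvk stood at 5.76, 4.99 and 5.15 CPM in mon and at 3.66, 3.78 and 4.67 CPM in siblings at 22 hpf (log2 0.39 ± 0.24, edgeR, adjusted p = 1.00). These groups did not overlap, with mon higher, as at 22 hpf in 4.12% of all tested genes. In mon 5 of 10 were called between the stages (42.3% of all tested genes), 1 higher and 4 lower at 30 hpf, and with clutch as a block 3 of 10 (41.4% of all tested genes). In siblings 3 of 10 were called, beside 43.1% of all tested genes called in either direction. All 3 were lower at 30 than at 22 hpf. They were idi1 (log2 -0.99 ± 0.10), the farnesyl diphosphate synthase gene fdps (-0.66 ± 0.13) and hmgcs1, the gene of 3-hydroxy-3-methylglutaryl-CoA synthase (-0.34 ± 0.11; edgeR, adjusted p = 4.63e-07, 0.00123 and 0.0192). Farnesyl diphosphate is used for sterols and protein prenylation as well as for coenzyme Q.

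Of the 15 tested genes on the list of enzymes that pass electrons to coenzyme Q, directly or through another enzyme (etfa and etfb), 0 were called between mon and siblings. The medians were -0.03 at 30 hpf and -0.02 at 22 hpf. The gene of the ferroptosis suppressor, aifm2, which reduces coenzyme Q outside mitochondria, had a log2 fold change of 0.19 ± 0.13 at 30 hpf and 0.01 ± 0.13 at 22 hpf. For gpd2 it was -0.08 ± 0.10 and -0.20 ± 0.11. At the stage comparison 7 of 15 were called higher and 2 lower at 30 hpf in mon, and the counts in siblings were the same. This is 60.0% of the list, beside 42.3% of all tested genes in mon and 43.1% in siblings. With the block 9 of 15 were called in mon and 12 of 15 in siblings, beside 41.4% and 42.7% of all tested genes. The mitochondrial glycerol-3-phosphate dehydrogenase gene gpd2 stood at 30.3, 27.6 and 29.1 CPM at 30 hpf and 11.5, 10.8 and 11.0 CPM at 22 hpf in siblings (log2 1.39 ± 0.11, edgeR, adjusted p = 1.23e-08). The complex II subunit gene SDHD (ENSDARG00000030139) was higher by 0.53 ± 0.08. Those called lower were dhodh (-0.71 ± 0.15), the gene of dihydroorotate dehydrogenase of pyrimidine synthesis, and chdh (-0.57 ± 0.10), that of choline dehydrogenase.

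**Figure D5:**
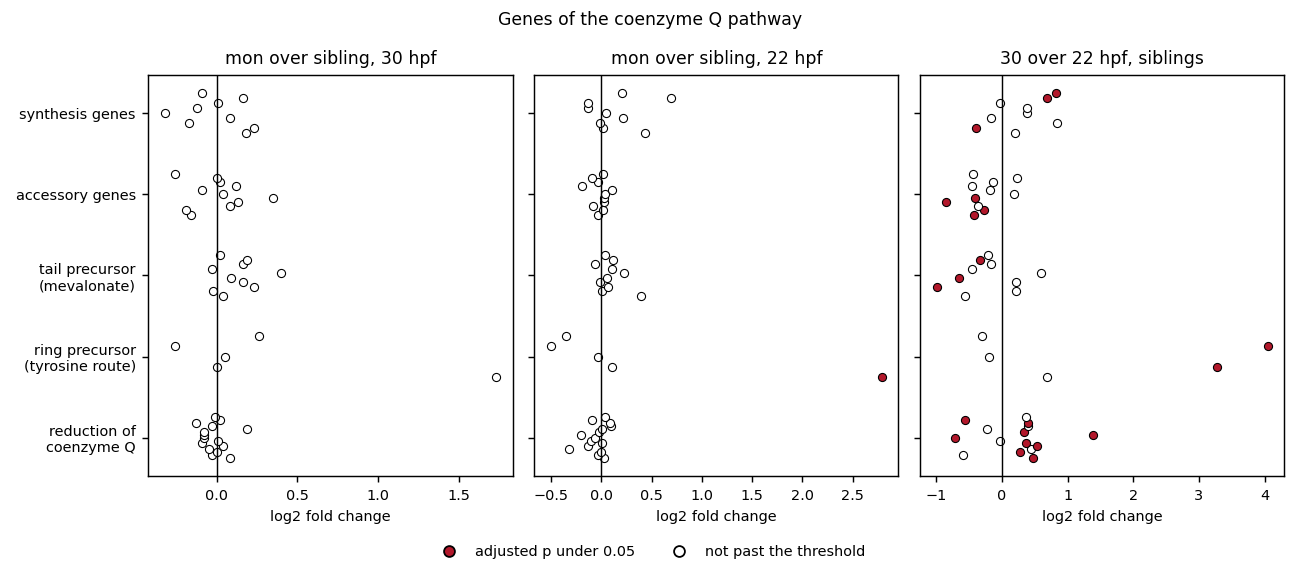
Log2 fold changes (x axes, scales differ) of the tested genes of the core pathway and the 4 surrounding lists (rows), mon over sibling at 30 hpf and 22 hpf and 30 over 22 hpf in siblings. Filled points passed an adjusted p of 0.05: 0 at 30 hpf, 1 at 22 hpf (hpda) and 21 between the stages.

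Across the 12 libraries the members' correlations differed in sign. The Pearson r of each member with the mean of the other 8, over log2 CPM, ran from -0.498 for pdss1 and -0.387 for coq5 to 0.454 for coq3 and 0.565 for coq4. These are descriptions over 12 libraries that share clutches and stages. The gene outside the pathway with the profile most like the mean of the members was mgat4a (r = 0.912 over 12 libraries, 10880 genes searched), followed by si:ch211-126i22.5 (0.885), si:ch211-167b20.8 (0.883), atp6v1h (0.876) and ccdc141 (0.870). With the group means taken out, the r of these 5 genes was between 0.205 (atp6v1h) and 0.784 (ccdc141).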

How the data were processed

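The authors deposited raw read counts per gene as 1 table of 32520 Ensembl gene IDs and 12 libraries. Per the submitters' processing notes, the tools were HTSeq, TopHat2 2.0.11, Cufflinks 2.2.1, cutadapt and FastQC, and the build was GRCz11. Roles, annotation release and strand setting were not given in the sources used here. Reads of genes that overlap, antisense partners included, may thus be mixed. Of 9 member names 9 were matched through a table of gene IDs and symbols. A symbol in capitals is an orthologue's and may cover several zebrafish genes, so its ID is given.

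The counts were fitted with the quasi-likelihood test of edgeR 4.0.16 (R 4.3.3; robust, TMM scaling, filterByExpr) with 12 libraries and 4 groups in 1 model, with 8 residual degrees of freedom (common biological coefficient of variation 0.142). P-values were adjusted by Benjamini-Hochberg over 21778 genes. Each SE was worked back from the F statistic and the fold change, and 95% intervals follow from it. The procedure was tested on simulated data with the same dispersion for every gene and no clutch effect, so the pairing by clutch and the spread of single genes were not covered. DESeq2 1.42.0, limma-voom (limma 3.58.1), other scalings and filters, the clutch block and left-out libraries or clutches were alternatives. The members, gene lists and tests were chosen with earlier results of these data known. Named genes were all members, trim33, and of each other list the 2 of smallest unadjusted p at each stage and in the stage comparison of siblings (others are named where a count of 5 or fewer called for it), and the 5 genes of most similar profile.

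The libraries pair by clutch per the labels. Deviations from group means correlated at 0.509 to 0.69 in the 6 pairs of the same clutch, against at most -0.193 between clutches, over 10884 genes. The deviations of the 3 libraries of a group sum to 0, which by itself pushes the values between clutches below 0. Within groups, library pairs had a chi-square per gene of 6.86 to 10.8 over genes with enough reads, so none repeated another of its group. Pairs across groups were not compared in this way. Totals were 18233320 to 23135676 counts, and PCR copies were not separated from independent molecules. Precision also rested on the spread between libraries. With 2165 and 2067 reads in total, coq9 and pdss2 had biological coefficients of variation of 0.351 and 0.132.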

Additional observations from a re-analysis of the deposited data

How the results depend on the processing

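The count of 0 members called between mon and siblings held at 30 hpf, at 22 hpf, in their mean and in their difference under each alternative run, including each of the 12 libraries left out. The numbers pair the samples by clutch, and with clutch as a block all genes called rose to 673 at 30 hpf and 322 at 22 hpf, against 172 and 97, to 796 in the mean against 243, and to 105 in the difference against 19; between mon and siblings, other calls of the printed genes moved as given above, and the block called the difference of trim33 between stages (adjusted p = 1.41e-05, without it 0.415). DESeq2 called 157 genes at 22 hpf and 33 in the difference. On the 6 libraries of 22 hpf alone 63 were called. Without clutch 9 the counts were 95 at 30 hpf, 60 at 22 hpf, 158 in the mean and 9 in the difference, and without clutch 13 (chosen after seeing the data) 12 in the difference. With 1 library left out they ran from 121 to 176, from 75 to 95, from 201 to 232 and from 16 to 21.

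Members called between stages in siblings numbered 3, and 1 without clutch 9 (1 to 4 with a library left out). In mon the count of 0 became 1 with the block, on the 6 libraries alone and without clutch 13 (0 to 1). Of the surrounding lists, the 1 call at 22 hpf became 0 without clutch 9 or 13 (hpda adjusted p = 0.294 and 0.0858) and under a stricter filter that drops hpda (0 to 1 with a library left out). The 0 of 41 at 30 hpf became 2 of 41 with the block, which called 3.09% of all tested genes there. Signs of small, uncalled values turned: without clutch 9 for pdss1 at 22 hpf (-0.02), coq6 at 30 hpf (0.10), coq7 at 22 hpf (0.08), in the mean (0.20) and between stages in siblings (0.19), and coq2 between stages in mon (-0.20); with limma-voom for coq7 at 30 hpf (-0.02) and between stages in siblings (0.01); with the block between stages in mon for pdss2 (0.08) and coq7 (-0.34); without clutch 13 for coq9 at 22 hpf (0.09) and coq6 in the difference (-0.09). With 1 library left out, values that turned ranged as follows, at 22 hpf from -0.08 to 0.14 (pdss1), -0.11 to 0.22 (coq2), -0.23 to 0.05 (coq6), -0.30 to 0.20 (coq7), -0.003 to 0.41 (coq4), -0.36 to 0.38 (coq9) and -0.70 to 0.06 (hpdl). At 30 hpf they ran from -0.22 to 0.07 (coq6), -0.09 to 0.20 (coq5), -0.19 to 0.19 (coq7), -0.17 to 0.01 (coq4) and -0.46 to 0.02 (tat), and in the mean from -0.16 to 0.10 (coq7), -0.05 to 0.16 (coq4) and -0.27 to 0.10 (coq9). In the difference the ranges were -0.16 to 0.20 (coq6), -0.20 to 0.32 (coq7) and -0.55 to 0.19 (coq9), between stages in mon -0.14 to 0.04 (pdss2), -0.15 to 0.17 (coq2) and -0.08 to 0.30 (coq7), and in siblings -0.20 to 0.31 (coq7). The causes were not tested.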

Other observations

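The low coq9 level in clutch 13 was shared by mon and siblings. The mean of both libraries was 2.92 CPM, against 8.13 CPM over the other 4 libraries of 22 hpf, a ratio of 0.360. Of 12515 genes with a mean of at least 5 CPM, 13 had both libraries of clutch 13 under 0.5 times the lowest of the other libraries of that stage, and the same count was 13 for clutch 9 and 6 for clutch 11. Protein-coding genes that flank coq9 on the GRCz12tu assembly, up to 5 places away, were read where they were tested under a single ID. Not every place was covered. The genes read had ratios from 0.593 (acte1, at most 1.93 CPM in clutch 13) to 1.33 (prmt7), and those directly beside coq9 had 0.861 (polr2c) and 1.25 (ciapin1). The biological coefficient of variation of coq9 was 0.351, the highest of the members, where the others lay between 0.127 and 0.214. This comparison was made after the values were seen, and its cause was not tested.

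None of the 9 genes lies on the chromosome of trim33 on that assembly.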
